A study of Homo sapiens with 6 samples.

Results

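The genes described here serve protein folding in the endoplasmic reticulum (ER) and the unfolded protein response. They were picked by name, with no measured value in the rule, though earlier results of these data were known. All 45 were found among the 79172 gene names of the count table. They fall into 7 sensors and transcription factors, 10 chaperones and their partners, 7 genes of disulfide bond formation, 3 of the lectin cycle, 12 of ER-associated degradation (ERAD), and 6 of protein entry into and exit from the ER. RNA-seq was done on Huh7, an established hepatocellular carcinoma cell line, in 3 libraries that overexpressed HK1 (hexokinase 1) and 3 control libraries. How HK1 was introduced and what the controls received are not given in the sources used here. Nothing in the labels states that replicates came from separate cultures, so p-values measure the spread between these libraries, which may be technical.

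The ER folds secreted and membrane proteins. When unfolded proteins accumulate, the chaperone BiP leaves the sensors IRE1 (gene ERN1), PERK and ATF6, and these raise chaperone, oxidoreductase and ERAD genes through XBP1, ATF4 and cleaved ATF6. Hepatocytes secrete most plasma proteins, and carry an extensive ER. The ER stress response element (ERSE) and its shorter relative ERSE-II are DNA elements read by ATF6 and XBP1 together with the CCAAT-binding factor NF-Y. The UPRE is an element read by XBP1 and ATF6.

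The promoter sequences of the 6 members called changed (5 lower and 1 higher, at an adjusted p under 0.05) are shown first, to show which of them hold the letters of a stress element and which do not. The ERSE was first described in promoters of ER chaperone genes such as HSPA5 and ERSE-II in that of HERPUD1, so their presence in this group of genes is background and no independent finding. Whether an element bears on how a member moved was not tested. The search covered the 250 bases before each RefSeq transcript start (GRCh38.p14), which were available for 41 of the 45 members in 51 windows. Both strands were searched. The ERSE letters were CCAAT and CCACG separated by 9 bases, those of ERSE-II were ATTGG and CCACG separated by 1 base, and those of the UPRE were TGACGTGG. The windows below are for the outermost RefSeq start, in the direction of transcription, with the fixed letters of each match in capitals.
HSPA5 (chr9:125241344-125241593, minus strand): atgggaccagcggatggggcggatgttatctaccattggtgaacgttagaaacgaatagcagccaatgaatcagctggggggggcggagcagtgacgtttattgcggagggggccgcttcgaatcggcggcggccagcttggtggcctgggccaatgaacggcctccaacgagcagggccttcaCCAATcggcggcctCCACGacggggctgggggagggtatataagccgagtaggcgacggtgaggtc
PDIA4 (chr7:149028491-149028740, minus strand): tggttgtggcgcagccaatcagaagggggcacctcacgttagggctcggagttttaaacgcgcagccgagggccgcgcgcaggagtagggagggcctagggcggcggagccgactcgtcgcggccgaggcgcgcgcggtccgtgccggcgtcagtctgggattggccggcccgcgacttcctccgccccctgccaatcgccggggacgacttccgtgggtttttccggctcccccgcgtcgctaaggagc
DNAJB11 (chr3:186570470-186570719, plus strand): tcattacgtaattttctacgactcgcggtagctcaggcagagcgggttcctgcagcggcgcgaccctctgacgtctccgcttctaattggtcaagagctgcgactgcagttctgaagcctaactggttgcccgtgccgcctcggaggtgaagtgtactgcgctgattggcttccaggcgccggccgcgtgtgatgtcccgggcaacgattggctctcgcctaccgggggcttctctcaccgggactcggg
HYOU1 (chr11:119057206-119057455, minus strand): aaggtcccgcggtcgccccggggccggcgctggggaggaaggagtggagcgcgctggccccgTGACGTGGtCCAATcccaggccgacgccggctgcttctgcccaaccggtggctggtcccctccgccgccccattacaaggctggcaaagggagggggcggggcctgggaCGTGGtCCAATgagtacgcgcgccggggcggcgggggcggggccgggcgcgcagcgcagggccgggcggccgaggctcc
XBP1 (chr22:28800570-28800819, minus strand): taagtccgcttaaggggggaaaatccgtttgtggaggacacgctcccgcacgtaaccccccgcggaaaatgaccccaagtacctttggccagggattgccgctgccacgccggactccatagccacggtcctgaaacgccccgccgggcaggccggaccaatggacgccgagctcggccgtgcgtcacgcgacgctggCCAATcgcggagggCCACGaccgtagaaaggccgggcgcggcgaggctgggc
HERPUD1 (chr16:56931892-56932141, plus strand): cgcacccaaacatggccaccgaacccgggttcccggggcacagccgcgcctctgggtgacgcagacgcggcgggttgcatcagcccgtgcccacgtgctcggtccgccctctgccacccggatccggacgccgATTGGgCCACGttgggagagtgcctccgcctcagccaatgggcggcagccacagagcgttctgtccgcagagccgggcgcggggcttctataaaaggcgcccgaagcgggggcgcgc
HSPA5 and XBP1 each hold 1 exact ERSE match. HYOU1 holds 2 exact ERSE-II matches and 1 UPRE match, and the UPRE shares its last letters with the farther ERSE-II. HERPUD1, the member called higher, holds 1 exact ERSE-II match. PDIA4 and DNAJB11 hold no exact match to any of the 3 elements in the windows searched. Annotated exons of PDIA4 reach 149028662, inside its window, and those of DNAJB11 begin at 186567403, upstream of its window. Bases outside the windows were not searched. Copies that differ from these letters were not searched for, so an element without an exact match would be missed.

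The ERSE letters were found in 9 of 51 member windows (17.6%), from 8 genes, against 26 of 35114 windows of all genes (0.074%). They were found in 0 of 112 windows of the 82 other ER genes that had one. ERSE-II was in 3 of 51 member windows (5.88%) against 0.0513% of all windows, and in none of the windows of other ER genes. Besides HYOU1 and HERPUD1 it was held by SDF2L1, which was not called (log2 fold change -0.12). The UPRE was in 4 member windows (7.84%), against 5.36% of the windows of other ER genes and 0.612% of all windows. Besides HYOU1 it was held by DNAJC10, TXNDC5 and VCP, which were not called (log2 fold changes 0.12, -0.03 and -0.10). CCACG alone was in 64.7% of member windows, 66.1% of those of other ER genes and 33.5% of all. CCAAT alone was in 72.5% of member windows, 33% of those of other ER genes and 32% of all. The sites of the 8 genes with an exact ERSE match are given here read along the element. They show how the spacer differs while the ends are fixed by the search.
HSPA5: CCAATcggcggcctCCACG
XBP1: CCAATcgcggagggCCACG
HSP90B1, farther site: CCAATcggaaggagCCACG
HSP90B1, nearer site: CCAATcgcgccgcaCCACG
CRELD2: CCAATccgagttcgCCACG
CANX: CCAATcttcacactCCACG
PDIA6: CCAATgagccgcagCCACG
CALR: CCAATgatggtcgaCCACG
ERO1B: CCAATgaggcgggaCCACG
The site of HSPA5 lay 66 to 48 bases before its start and that of XBP1 52 to 34 bases before. Of these 8 genes, HSPA5 and XBP1 were called lower in HK1-overexpressing cells (adjusted p under 0.05, described with the results). The other 6 were not called, with log2 fold changes between -0.12 and 0.06. Among all tested members 11.4% were called lower, and among all tested genes 4.15%. With 8 genes the share is coarse, and it was not tested. A match is a description of letters, and binding was not measured.

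**Figure D1:**
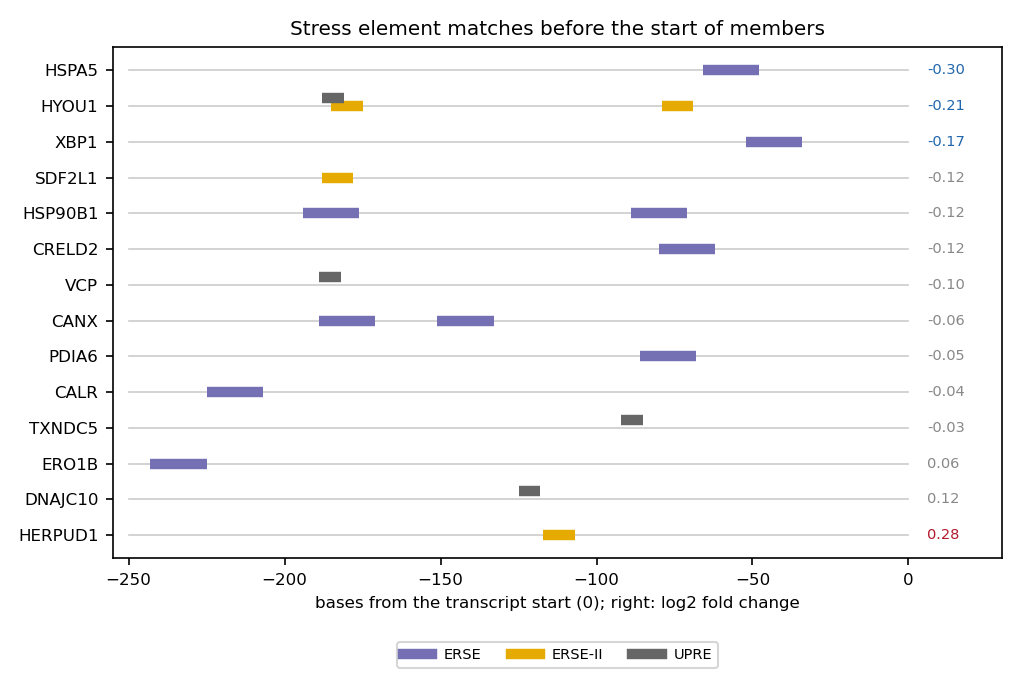
Matches to the ERSE, ERSE-II and UPRE letters (coloured bars) in the 250 bases before RefSeq transcript starts of members that hold one, ordered by log2 fold change of HK1-overexpressing over control cells, which is printed at the right (blue: called lower, red: called higher, grey: not called). CANX has 2 RefSeq starts that share 1 site, so its site is drawn at both distances. Members called lower stand at the top with HSPA5 at -0.30, and HERPUD1 at 0.28 stands at the bottom.

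HK1 itself was counted 9723, 10602 and 11101 times in the HK1-overexpressing libraries and 13, 15 and 13 times in the controls, a log2 fold change of 9.36 (edgeR adjusted p = 1.15e-17), so the libraries carry what their labels say. Libraries held 16771835 to 20823072 counts. Control replicates differed from each other by more than HK1-overexpressing ones, with a chi-square per degree of freedom of 1.58 to 2.28 between HK1-overexpressing libraries and 5.08 to 11.3 between controls. Levels are given as CPM, the count relative to the library's total after TMM scaling, and as RPKM, CPM per kilobase of exon, where genes are compared with each other. Of the 8 hepatocyte markers checked, all were detected and 5 were called lower, among them ALB, with a summed level of 9199 to 9483 CPM in HK1-overexpressing and 11889 to 12910 CPM in control libraries. Of 4 endothelial, 4 blood and 4 fibroblast markers, 3 each were too low to test, at no more than 0.151, 0.176 and 0.607 CPM in any library, and CDH5 and KDR had a count of 0. The others were PECAM1, which was not called, LYZ, called lower, and COL1A2, called higher. The blood markers summed to 43.0 to 48.2 CPM in HK1-overexpressing libraries, against 61.2 to 71.1 CPM in controls, and the fibroblast markers to 17.2 to 19.8 CPM in HK1-overexpressing libraries, against 11.8 to 13.5 CPM in controls. The endothelial sums were 4.53 to 5.40 CPM in HK1-overexpressing and 4.02 to 6.25 CPM in control libraries.

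Of the 45 members 44 had enough counts to test, and 5 were lower and 1 higher in HK1-overexpressing cells by edgeR's quasi-likelihood test with Benjamini-Hochberg adjustment over all 16734 tested genes. HSPA5, PDIA4, DNAJB11, HYOU1 and XBP1 fell, and HERPUD1 rose. In percent, 11.4% of the tested members were called lower against 4.15% of all tested genes (6.31% of those with a mean of at least 10 CPM), and 2.27% were called higher against 3.87%. In both directions together, 8.02% of all tested genes were called, 648 higher and 694 lower, or 898 higher and 463 lower with library totals in place of TMM. DESeq2 and limma-voom called the same 5 and 1. At an unadjusted edgeR p under 0.05, 9 members were lower and 3 higher, beside 11.2% lower and 10.7% higher among all tested genes. Of the 9446 tested genes with a mean of at least 10 CPM, 1522 were lower and 1060 higher by that threshold. Log2 fold changes of members lay between -0.30 and 0.30, and no member passed a test against a fold of 1.5, by which 32 genes of the whole table were higher and 16 lower.

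The median log2 fold change was -0.04 for members, 0.0063 for all tested genes and -0.015 for those with a mean of at least 10 CPM. The median size without sign was 0.0907 for members, 0.12 for all tested genes and 0.0916 for those with a mean of at least 10 CPM. Of the members 18 were positive and 26 negative. Of the 9446 tested genes with a mean of at least 10 CPM, 4324 were positive and 5122 negative. The 3 HK1-overexpressing libraries lay wholly on one side of the 3 controls for 5 tested members above and 12 below, which is 38.6% against 27.8% of all tested genes and 33.3% of those with a mean of at least 10 CPM. The summed level of the members was 11737 ± 49.6 CPM in HK1-overexpressing and 12576 ± 236.4 CPM in control libraries (SD, n = 3 each), a difference of -839.3 CPM. HSPA5 alone made up -298.2 CPM of it, and the 5 members called lower -475.7 CPM. In cells measured in bulk, fewer cells that express a gene and less of its RNA per cell cannot be told apart. Of the hepatocyte markers, the 5 called lower (ALB, AFP, APOA1, TTR and TF) encode secreted proteins, as do APOB and SERPINA1, which were not called. Whether these markers have any relation to the members called lower was not tested.

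**Figure D2:**
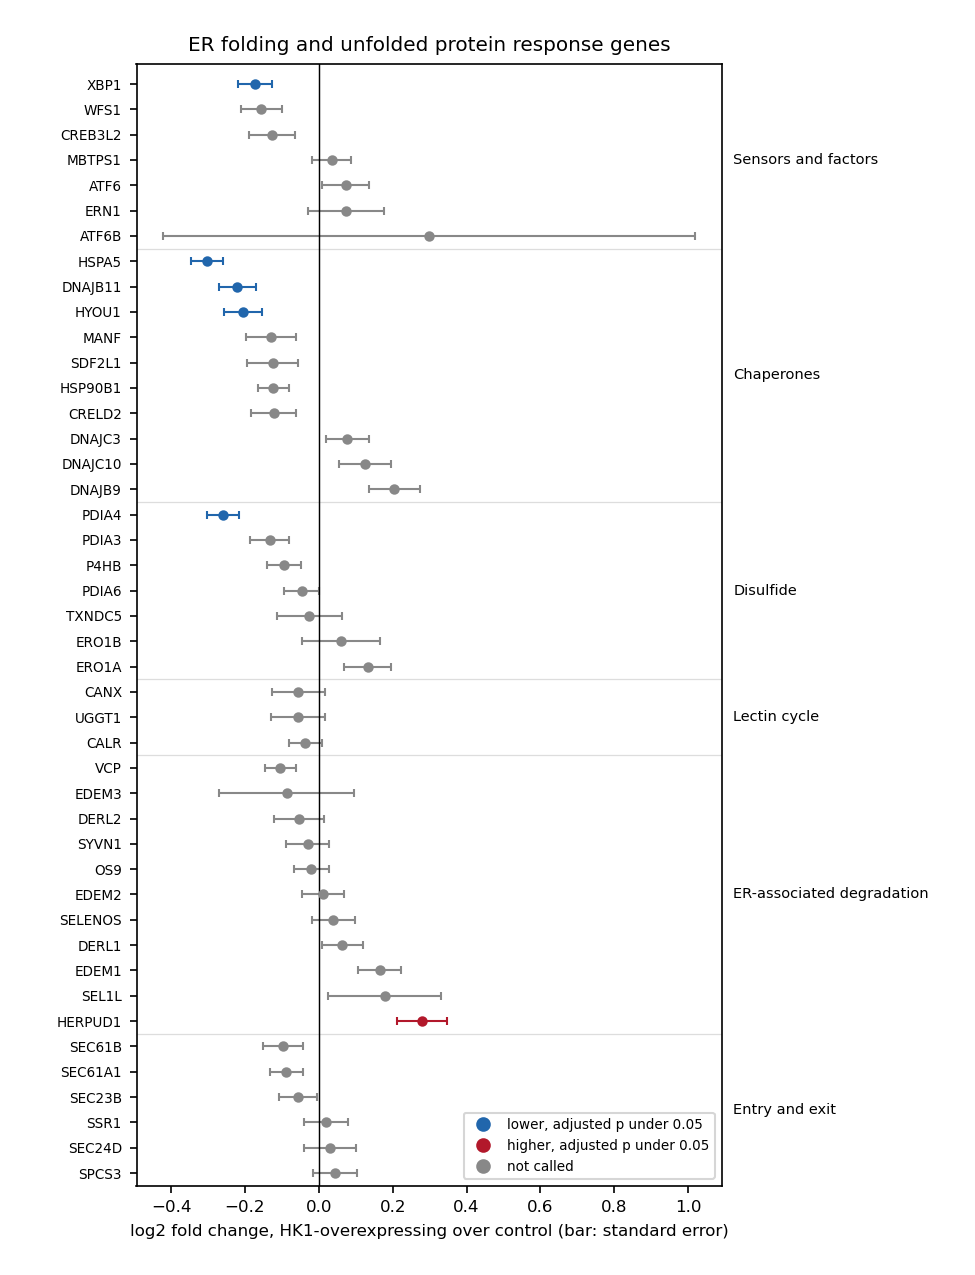
Log2 fold change of HK1-overexpressing over control cells for the 44 tested members, by role (points: edgeR estimates, bars: standard errors, n = 3 libraries each, colours: calls at an adjusted p under 0.05). Blue points from HSPA5 (-0.30) to XBP1 (-0.17) lie among chaperones, disulfide genes and sensors, and the red point is HERPUD1 (0.28) of ERAD. The wide bar is ATF6B, whose counts were low and uneven.

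Among the chaperones 3 of 10 (30%) were called lower, against 4.15% of all tested genes and 6.31% of those with a mean of at least 10 CPM. With 10 genes this share is coarse, and it was not tested. HSPA5 encodes BiP, the HSP70 chaperone of the ER and the partner that holds the sensors inactive. It was at 1253, 1283 and 1296 CPM in HK1-overexpressing libraries and 1582, 1601 and 1543 CPM in controls, so every HK1-overexpressing library lay below every control. The log2 fold change was -0.30 (standard error 0.0424, a ratio of 0.811, edgeR adjusted p = 0.00047). The gene lies on chromosome 9 from 125234853 to 125241382 (hg38), and its exons share no bases with another gene name. The call held without any single library and in all alternatives except the test against a fold of 1.5, with log2 values between -0.32 and -0.26. Per exon length HSPA5 stood at 195.6 RPKM in HK1-overexpressing and 241.3 RPKM in control cells, below CALR, the highest among members, at 455.0 RPKM in HK1-overexpressing and 466.6 RPKM in control cells. Exon length counts all annotated exons, so levels of genes with many annotated transcripts are understated.

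Besides HSPA5, DNAJB11 and HYOU1 fell. DNAJB11 (ERdj3), a J-domain protein that delivers unfolded chains to BiP, was at 122.3, 123.5 and 122.1 CPM in HK1-overexpressing libraries and 147.0, 138.8 and 142.7 CPM in controls. The groups did not overlap, and the log2 fold change was -0.22 (standard error 0.0492, edgeR adjusted p = 0.0128). Of its exon bases 14.2% lie in exons of other gene names, whose fragments may go uncounted. HYOU1 (GRP170), the nucleotide exchange factor that resets BiP, was at 281.8, 289.9 and 300.1 CPM in HK1-overexpressing libraries and 351.2, 336.9 and 317.4 CPM in controls. Of its exon bases 9.77% are shared with its antisense gene HYOU1-AS1, and without strand those fragments cannot be told apart. The exons of HYOU1 are also annotated on 1 alternate sequence, where fragments may map to several places and stay uncounted. The groups did not overlap, at a log2 fold change of -0.21 (standard error 0.0511, edgeR adjusted p = 0.0229). Both calls were lost without any 1 of the HK1-overexpressing libraries (largest edgeR adjusted p = 0.0860 for DNAJB11 and 0.163 for HYOU1). The call of HYOU1 was also lost with library totals in place of TMM (edgeR adjusted p = 0.0643).

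The other 7 chaperone genes were not called. HSP90B1 (GRP94), the HSP90 of the ER, was at 1120, 1109 and 1094 CPM in HK1-overexpressing libraries and 1236, 1178 and 1203 CPM in controls. Its groups did not overlap, at a log2 fold change of -0.12 (edgeR adjusted p = 0.0987), and it was called without control replicate 2 (edgeR adjusted p = 0.0252). DNAJB9 (ERdj4), a J-domain protein that represses IRE1, was at 50.1, 51.0 and 53.6 CPM in HK1-overexpressing libraries and 45.9, 40.8 and 47.5 CPM in controls. It stood opposite to DNAJB11, with the HK1-overexpressing libraries all higher, at a log2 fold change of 0.20 (edgeR adjusted p = 0.0832). DNAJB9 was called higher with library totals only, with no filter on low counts and without control replicate 1 (edgeR adjusted p = 0.0413, 0.0376 and 0.0372). SDF2L1, which binds J-domain proteins of the ER, MANF, a small secreted regulator of BiP, and CRELD2, another small stress-induced ER protein, had log2 fold changes of -0.12, -0.13 and -0.12. Those of DNAJC3 (p58IPK), a BiP partner that also inhibits PERK, and DNAJC10 (ERdj5), a J-domain protein that reduces disulfides before degradation, were 0.08 and 0.12.

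**Figure D3:**
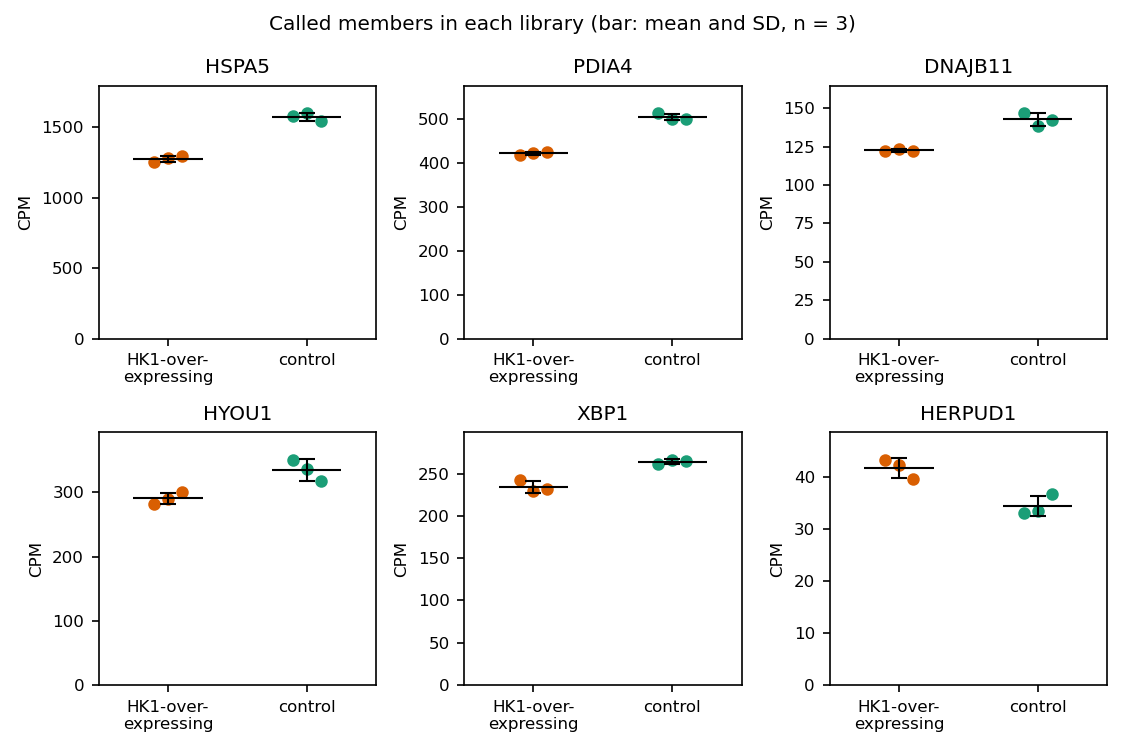
Level in CPM of the 6 called members in each library (points), with mean and SD (bars, n = 3 libraries each), HK1-overexpressing cells in orange and controls in green, axes from 0. HSPA5, PDIA4, DNAJB11, HYOU1 and XBP1 lie lower in every HK1-overexpressing library than in any control, and HERPUD1 lies higher, at 39.6 to 43.4 CPM in HK1-overexpressing and 33.2 to 36.7 CPM in control libraries.

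Of the 7 genes of disulfide formation 1, PDIA4 (ERp72), fell. This disulfide isomerase works in a complex with BiP. It was at 418.4, 422.2 and 426.1 CPM in HK1-overexpressing libraries and 514.0, 500.1 and 501.5 CPM in controls. The gap between the groups was far wider than the range within either. The log2 fold change was -0.26 (standard error 0.0435, edgeR adjusted p = 0.00189), and the call held without each library in turn. Its exons, on chromosome 7 from 149003062 to 149028662 (hg38), share no bases with another gene name. PDIA3 (ERp57), which acts on glycoproteins held by calnexin and calreticulin, was at 183.6, 178.9 and 170.2 CPM in HK1-overexpressing libraries and 184.9, 202.6 and 196.7 CPM in controls. Its groups were just apart, and it was not called (log2 -0.13, edgeR adjusted p = 0.150). P4HB, the main protein disulfide isomerase, and PDIA6 had log2 fold changes of -0.09 and -0.05. The oxidases that recharge them, ERO1A and ERO1B, had 0.13 and 0.06, with the groups overlapping. Of the exon bases of PDIA6, 27.2% are shared with genes on the opposite strand, where fragments may go uncounted. TXNDC5, another isomerase (log2 -0.03), averaged 11.6 ± 0.669 CPM in HK1-overexpressing and 11.9 ± 0.262 CPM in control cells (SD, n = 3 each). As 61.1% of its exon bases are shared, mostly with the read-through gene BLOC1S5-TXNDC5, this level is no measure of its expression.

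Among sensors and factors XBP1 fell and the other 6 were not called. XBP1 encodes the factor that IRE1 activates by splicing its mRNA, and spliced and unspliced forms were not separated in these counts. It was at 242.2, 229.4 and 231.8 CPM in HK1-overexpressing libraries and 261.8, 266.7 and 264.6 CPM in controls. The controls lay close together and all above the HK1-overexpressing libraries. The log2 fold change was -0.17 (standard error 0.0465, edgeR adjusted p = 0.0344), the weakest of the 6 calls. It was lost without control replicate 3, without any 1 HK1-overexpressing library, with library totals only and with no filter on low counts (edgeR adjusted p = 0.0804 to 0.218).

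The sensor genes themselves showed overlapping groups. ATF6, the sensor cut in the Golgi to release a transcription factor, was at 44.2, 47.3 and 47.6 CPM in HK1-overexpressing libraries and 46.2, 43.0 and 42.9 CPM in controls. Its log2 fold change was 0.07 (standard error 0.0631, edgeR adjusted p = 0.555). ERN1, the kinase and RNase IRE1, was at 22.6, 21.8 and 20.8 CPM in HK1-overexpressing libraries and 23.6, 17.1 and 21.1 CPM in controls. Control replicate 2 was its lowest library, and the log2 fold change was 0.07 (standard error 0.102, edgeR adjusted p = 0.729). MBTPS1, the Golgi protease that starts the cutting of ATF6, had a log2 fold change of 0.03. WFS1, a membrane protein that restrains ATF6, was lower in each HK1-overexpressing library, at 81.4 to 87.0 CPM against 92.4 to 98.6 CPM in controls (log2 -0.16, edgeR adjusted p = 0.104). CREB3L2, an ATF6-like factor, had -0.13 with overlapping groups.

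ATF6B, a relative of ATF6 in the MHC region, was uneven. It was counted 174, 47 and 49 times in HK1-overexpressing replicates 1, 2 and 3, and 67, 42 and 82 times in controls. HK1-overexpressing replicate 1 stood far above the rest, and the log2 fold change was 0.30 with it (edgeR adjusted p = 0.865) and -0.64 without it (edgeR adjusted p = 0.252). Its exons are annotated on 3 alternate sequences besides chromosome 6, where fragments may map to several places and stay uncounted, so the level is not a measure of its expression.

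No gene of the lectin cycle was called by edgeR, DESeq2 or limma-voom, and none had an unadjusted edgeR p under 0.05. CALR (calreticulin) and CANX (calnexin) hold glycoproteins that carry a terminal glucose, and UGGT1 adds that glucose back to misfolded ones. CALR was at 1265, 1281 and 1278 CPM in HK1-overexpressing libraries and 1262, 1350 and 1310 CPM in controls. CANX, which is also annotated on 1 alternate sequence where fragments may stay uncounted, was at 1436, 1434 and 1430 CPM in HK1-overexpressing libraries. In controls CANX was at 1627, 1292 and 1550 CPM. The HK1-overexpressing libraries sat within the spread of the controls, which was wide for CANX (SD 2.90 CPM in HK1-overexpressing and 175.2 CPM in control libraries, n = 3 each). UGGT1 averaged 156.6 ± 4.55 CPM in HK1-overexpressing and 162.6 ± 19.7 CPM in control cells. The log2 fold changes were -0.04 for CALR and -0.06 for CANX and UGGT1, with standard errors of 0.0437, 0.0714 and 0.0732.

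ERAD genes, which recognise misfolded proteins, thread them back out of the ER and pass them to the proteasome, included the member that rose. HERPUD1, a membrane protein that assembles the ERAD complex around the ligase SYVN1, was at 43.4, 42.3 and 39.6 CPM in HK1-overexpressing libraries and 33.2, 33.4 and 36.7 CPM in controls. The groups were apart. The log2 fold change was 0.28 (standard error 0.0679, edgeR adjusted p = 0.0204), and the gene lies on chromosome 16 from 56932142 to 56944864 (hg38). The call was lost without HK1-overexpressing replicate 1 or 2 (edgeR adjusted p = 0.115 for each). EDEM1, a mannosidase-like protein that marks glycoproteins for disposal, was at 132.4, 129.9 and 124.9 CPM in HK1-overexpressing libraries and 123.2, 106.3 and 115.8 CPM in controls. All HK1-overexpressing libraries were higher, but it was not called (log2 0.16, edgeR adjusted p = 0.111). VCP, the ATPase that pulls substrates out of the membrane, was not called either, at 946.0 ± 15.1 CPM in HK1-overexpressing and 1017 ± 14.8 CPM in control cells (SD, n = 3 each, log2 -0.10, edgeR adjusted p = 0.160).

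The other ERAD genes were not called. SYVN1 (HRD1), the ubiquitin ligase of the complex, averaged 43.7 ± 0.794 CPM in HK1-overexpressing and 44.7 ± 0.624 CPM in control cells (SD, n = 3 each). The log2 fold changes of EDEM2, of the lectin OS9, of the channel proteins DERL1 and DERL2 and of SELENOS, which recruits VCP, lay between -0.05 and 0.06. Of the exon bases of OS9, 23.9% lie in exons of other gene names, where fragments may go uncounted. SEL1L, the scaffold of SYVN1, was at 100.9, 94.7 and 96.8 CPM in HK1-overexpressing libraries and 106.5, 68.8 and 82.5 CPM in controls. EDEM3 was at 67.2, 66.1 and 70.1 CPM in HK1-overexpressing libraries and 84.7, 52.3 and 78.8 CPM in controls. In both genes control replicate 2 was far the lowest, and their calls depended on the controls used. SEL1L was called higher without control replicate 1 (edgeR adjusted p = 0.00109) and EDEM3 lower without control replicate 2 (edgeR adjusted p = 0.00247). No fragment was counted for DERL3, another Derlin, in any library. A count of 0 allows a level of up to 0.144 CPM in the deepest and 0.179 CPM in the shallowest library, for counting error only. Of its exon bases 77% are shared with other gene names, chiefly SMARCB1 on the opposite strand. Its exons are also annotated on 1 alternate sequence besides chromosome 22, where fragments may map to several places and stay uncounted. The count of 0 for DERL3 therefore does not show that it was silent.

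Genes of entry and exit were not called by edgeR, DESeq2 or limma-voom, and none of the 6 had an unadjusted edgeR p under 0.05. The translocon subunit SEC61A1 was at 778.2, 781.9 and 795.5 CPM in HK1-overexpressing libraries and 829.9, 860.4 and 812.8 CPM in controls. These groups were apart by a small step (log2 -0.09, edgeR adjusted p = 0.264). Its partner SEC61B, at 126.2 RPKM in HK1-overexpressing and 135.1 RPKM in control cells, had a log2 fold change of -0.10 with overlapping groups. The translocon-associated SSR1, the signal peptidase subunit SPCS3 and the COPII coat genes SEC24D and SEC23B had log2 fold changes of 0.02, 0.04, 0.03 and -0.06.

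**Figure D4:**
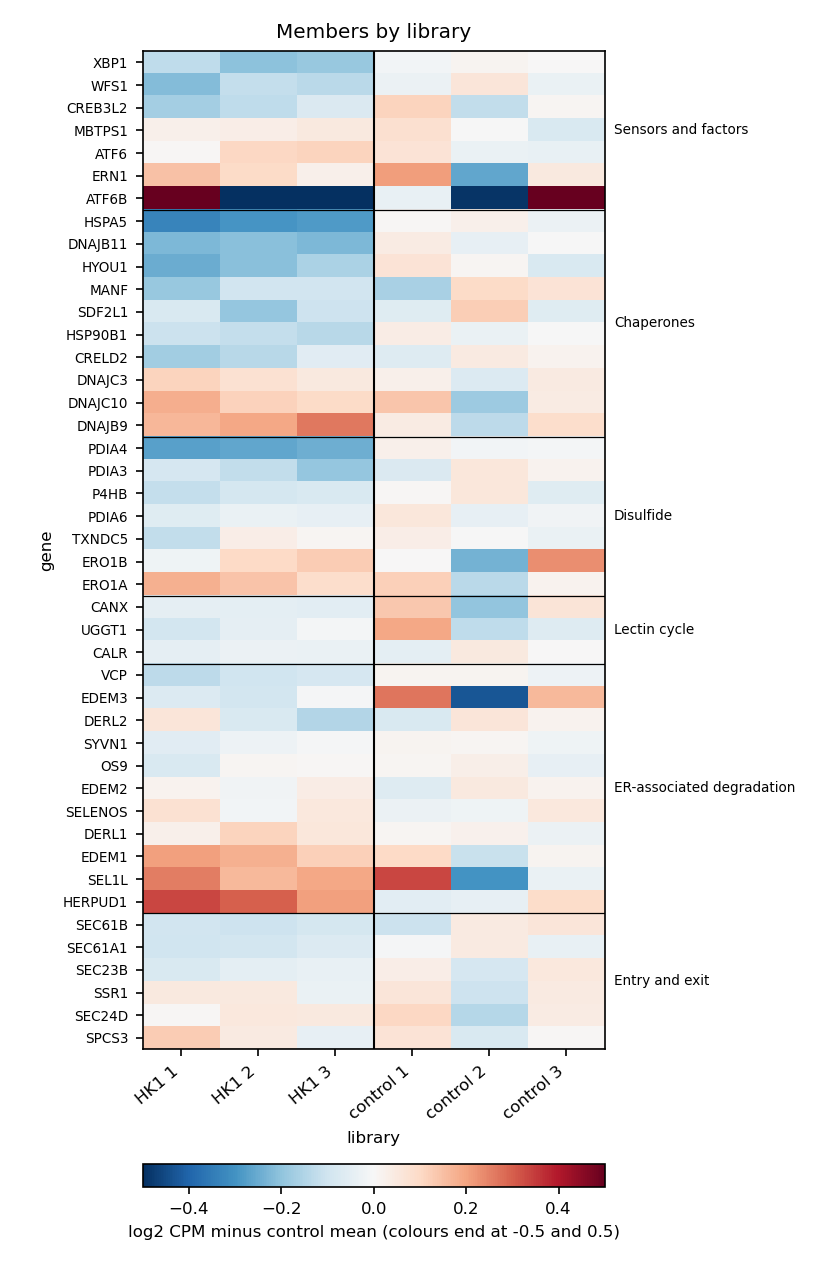
Log2 CPM of each tested member minus its control mean, in the 3 HK1-overexpressing (left) and 3 control libraries (right), by role, with colours ending at -0.5 and 0.5. HSPA5, DNAJB11, HYOU1, PDIA4 and XBP1 are blue in all 3 HK1-overexpressing libraries. EDEM3, SEL1L and ERN1 are blue in control replicate 2 and red in control replicate 1, and ATF6B runs past the colour scale.

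How tightly a member could be measured depended on the group. The median SD of log2 CPM over members was 0.0437 in HK1-overexpressing and 0.0710 in control libraries, and over all tested genes 0.0772 in HK1-overexpressing and 0.130 in control libraries. Between control replicates 2 and 1 the members differed with exon length, which includes exons on alternate sequences. This length was 20715 bases for CANX, with 13764 on chromosome 5, and 14548 for HYOU1, with 6825 on chromosome 11. For ATF6B it was 14516 bases, with 3629 on chromosome 6. The Spearman coefficient of the log2 ratio of control replicate 2 over 1 with exon length was -0.588 across the 44 members and -0.246 across all tested genes. It is a description across genes of 2 libraries, and genes of a library are not independent replicates. The HK1-overexpressing over control fold change had a coefficient of 0.147 with exon length across members. Ribosomal protein genes took 2.22% to 2.27% of counts in HK1-overexpressing libraries and 2.10%, 2.58% and 2.42% in control replicates 1, 2 and 3. Without control replicate 1, 8 members fell and 6 rose, while 6.32% of all tested genes were called lower and 6.82% higher. Without control replicate 2, 9 fell and 1 rose, while 5.73% of all tested genes were called lower and 4.86% higher. The added rises without control replicate 1 were DNAJB9, DNAJC10, ERO1A, EDEM1 and SEL1L. Of the genes added on the lower side, MANF, PDIA3 and SEC61B came without control replicate 1, and CREB3L2, HSP90B1, CANX and EDEM3 without control replicate 2. Without any 1 HK1-overexpressing library, 2 members fell, HSPA5 and PDIA4 each time. Calls over all tested genes dropped as well in these fits. Without HK1-overexpressing replicate 1, 2 or 3, 254 of 17134, 250 of 17107 and 303 of 17094 tested genes were called lower, against 694 of 16734 with all libraries.

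**Figure D5:**
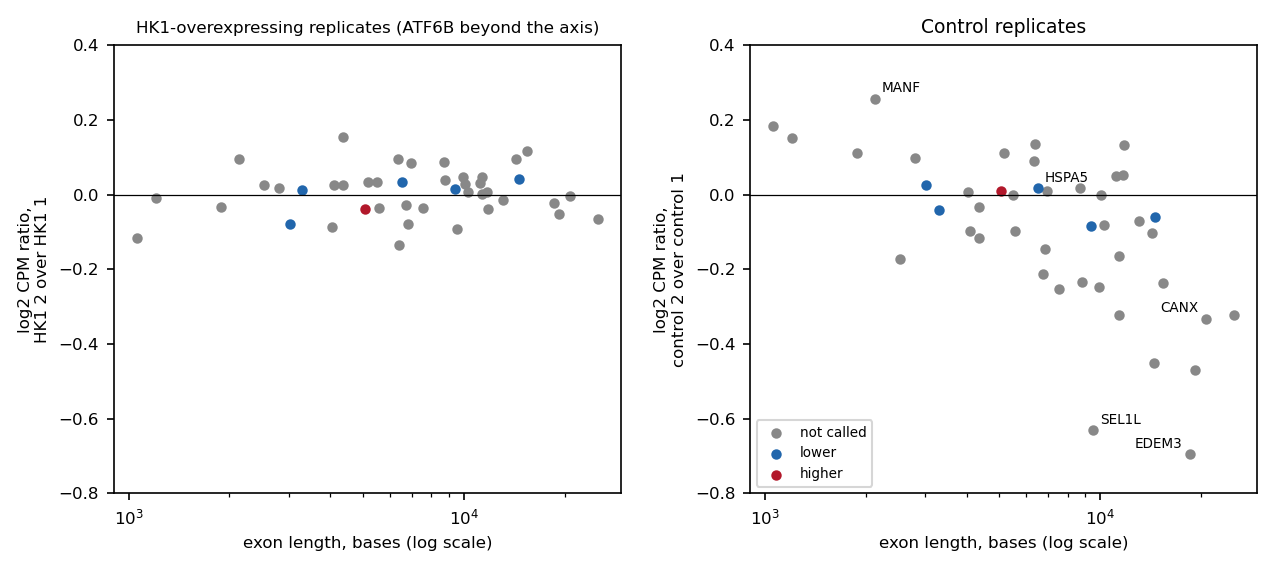
Log2 ratio of CPM between replicates 2 and 1 of HK1-overexpressing (left) and control cells (right) against exon length (log scale) for the tested members, coloured by call. In the controls long genes such as EDEM3, SEL1L and CANX lie well below 0 while HSPA5 lies near it, and the HK1-overexpressing replicates scatter about 0, apart from ATF6B outside the axis.

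Of 96 further ER genes that are not members, 95 were tested, and 3 rose and 3 fell by edgeR, or 3.16% each way against 3.87% and 4.15% of all tested genes. The rises were of CREB3L1 and CREB3L3, ER-bound transcription factors related to ATF6, and SEC61A2, a second translocon alpha subunit. CREB3L3 (CREBH), which is largely made in liver and gut, was at 19.6, 19.1 and 19.2 CPM in HK1-overexpressing libraries and 14.7, 14.3 and 14.8 CPM in controls. Its groups were far apart (log2 0.40, standard error 0.0752, edgeR adjusted p = 0.00414), and its call held without any single library. CREB3L1 averaged 10.1 ± 0.910 CPM in HK1-overexpressing and 7.58 ± 0.904 CPM in control cells (SD, n = 3 each, log2 0.42, edgeR adjusted p = 0.0347). SEC61A2 averaged 19.3 ± 0.550 CPM in HK1-overexpressing and 15.9 ± 0.454 CPM in control cells (log2 0.28, edgeR adjusted p = 0.0336). DESeq2 called CREB3L3 alone among these. Without any 1 HK1-overexpressing library CREB3L1 and SEC61A2 were not called, nor was CREB3L1 without control replicate 1 or SEC61A2 without control replicate 3.

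The falls were of FKBP10, a prolyl isomerase for collagen, of GANAB, the catalytic subunit of glucosidase II that trims glucose before calnexin binds, and of OSTC, a subunit of oligosaccharyltransferase. GANAB was at 827.3, 841.4 and 853.6 CPM in HK1-overexpressing libraries and 967.9, 994.7 and 943.3 CPM in controls. The groups were apart (log2 -0.20, standard error 0.0436, edgeR adjusted p = 0.00977). FKBP10 averaged 54.8 ± 2.82 CPM in HK1-overexpressing and 68.2 ± 4.13 CPM in control cells (log2 -0.31, edgeR adjusted p = 0.00793), and OSTC averaged 97.3 ± 3.78 CPM in HK1-overexpressing and 114.1 ± 5.91 CPM in control cells (log2 -0.23, edgeR adjusted p = 0.0229). Without HK1-overexpressing replicate 1 none of the 3 falls was called, and without replicate 2 or 3 FKBP10 alone was.

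The PERK branch was not called in any of its 6 genes by edgeR, DESeq2 or limma-voom, and none had an unadjusted edgeR p under 0.05. EIF2AK3, the kinase PERK, averaged 23.7 ± 0.875 CPM in HK1-overexpressing and 25.2 ± 2.10 CPM in control cells (SD, n = 3 each). ATF4, the factor whose translation it favours, averaged 226.0 ± 3.64 CPM in HK1-overexpressing and 241.5 ± 17.9 CPM in control cells. DDIT3 (CHOP), a pro-apoptotic factor, was at 11.5 to 13.5 CPM in HK1-overexpressing libraries and 11.7 to 14.8 CPM in controls. The groups overlapped for every gene of the branch but TRIB3, a pseudokinase induced by ATF4, which was at 228.5 ± 2.63 CPM in HK1-overexpressing and 217.8 ± 7.11 CPM in control cells. The log2 fold changes were -0.09 for EIF2AK3 and DDIT3, -0.10 for ATF4, 0.03 for PPP1R15A, 0.07 for TRIB3 and 0.08 for ATF3, with standard errors of 0.0474 to 0.102.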

How the data were processed

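The deposited values are whole-number counts per gene name, not estimated counts, made by the authors with featureCounts 1.5.3 in paired mode over exons of GENCODE release 47 on hg38, per the file headers and the submitters' processing notes, which also name Trim Galore and Subread. Exon lengths are those the deposited table gives. The recorded command sets no strand option and none for fragments in several genes or places, so shared exons may lose counts.

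From these counts, genes were kept by filterByExpr (16734), scaled by TMM and compared with edgeR 4.0.16 in R 4.3.3 (robust quasi-likelihood, group only, Benjamini-Hochberg adjustment over all tested genes at 0.05). Fold changes, on the log2 scale, set HK1-overexpressing against control cells, so positive values are higher with HK1. Standard errors are the unshrunken coefficient over the square root of F. The procedure was tested on simulated data. The changes seeded there were all larger than those of called members, so that test does not bear on changes of their size. The members, the lists and the rule for naming genes (all members, with full values for called ones and for ATF6, ERN1 and XBP1) were chosen with earlier results of these data known. Of other ER genes, the called ones and the PERK branch were named. Alternatives were other scalings, filters, DESeq2 1.42.0, limma-voom (3.58.1), no robust dispersion, another threshold or fold, a replicate block and leaving out each library. The limit that a count of 0 allows is 3 counts per library. Sequences are from RefSeq (GRCh38.p14).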

Additional observations from a re-analysis of the deposited data

How the results depend on the processing

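Counts of called members, 5 lower and 1 higher, were the same with RLE size factors, HK1 or mitochondrial genes left out, a mean CPM of at least 5, DESeq2, limma-voom and no robust dispersion. With library totals only they were 3 and 2, with an adjusted p at 0.01 they were 2 and 0, against a fold of 1.5 they were 0 and 0, and with no filter 4 and 2. Of all 16734 tested genes, 463 were lower and 898 higher with library totals only, and 285 lower and 289 higher at 0.01. Against a fold of 1.5, 16 were lower and 32 higher. With no filter, 685 of 40496 tested genes were lower and 932 higher. Leaving out 1 library gave 2 to 9 members lower and 0 to 6 higher. The other ER genes, 3 lower and 3 higher, became 0 and 0 against a fold of 1.5, 2 and 1 at 0.01, and 3 and 1 with DESeq2, and leaving out 1 library gave 0 to 8 lower and 1 to 5 higher. The cause was not tested. With a replicate block, 3 members (HSPA5, DNAJB11 and PDIA4) were lower and 1 higher, and XBP1 (edgeR adjusted p = 0.0925) and HYOU1 (edgeR adjusted p = 0.0561) were not called. The numbers did not pair the libraries: deviations of same-numbered libraries correlated at 0.00707, 0.0579 and -0.0304, and not every library matched its own number best. Over all tested genes, leaving out 1 library gave 286 to 1172 higher and 250 to 1085 lower. HK1 was called in each fit that held it.

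The direction of some uncalled members changed sign. With library totals only, which moved the median of all genes to 0.04, CALR was at 0.0023, OS9 at 0.018, SYVN1 at 0.0085 and TXNDC5 at 0.013. Over the fits that left out 1 library, log2 fold changes ran from -0.14 to 0.017 for CANX, -0.12 to 0.053 for UGGT1, -0.016 to 0.041 for EDEM2, -0.27 to 0.056 for EDEM3, -0.042 to 0.19 for ERN1, -0.041 to 0.18 for ERO1B, -0.027 to 0.054 for SSR1, -0.034 to 0.089 for SEC24D, -0.0035 to 0.080 for MBTPS1, -0.64 to 0.62 for ATF6B, -0.055 to 0.026 for TXNDC5 and -0.040 to 0.013 for OS9. ATF6B had 42 to 174 counts per library and DERL3 had 0.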
